A study of Macaca fascicularis with 9 samples.

Results

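SLC17A6, TCF7L2, LEF1, GBX2 and PRKCD, 5 genes known from neurons of the thalamus, were followed through every cell type of a single-nucleus RNA data set from the thalamus of cynomolgus monkeys. They were taken by symbol, and all 5 were present among the 29128 features of the matrix. The nuclei came from frozen brain of 9 female animals, were sorted by DAPI, a stain for DNA, and were counted in droplets as UMIs, tags that count single RNA molecules. Each sample was 1 animal. The saline group (3 animals) received 4 intravenous doses of saline, the ASO group (3 animals) a single intrathecal dose of 4 mg of an antisense oligonucleotide against MALAT1, and the OTV group (3 animals) 4 intravenous doses of OTV:MALAT1 at 30 mpk. Every group was sampled 2 weeks after its last dose. No group received saline intrathecally, so route, agent and number of doses cannot be told apart between the ASO group and either other group. Replicate numbers below only name animals.

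SLC17A6 encodes a vesicular glutamate transporter, the protein that loads glutamate into synaptic vesicles, and it is the form that relay neurons of the thalamus use most. GBX2, TCF7L2 and LEF1 encode transcription factors; TCF7L2 and LEF1 belong to the TCF/LEF family, which binds DNA at Wnt target genes and there recruits beta-catenin when a Wnt signal is present. TCF7L2 marks postmitotic thalamic and habenular neurons, but it is also known from oligodendrocyte precursors that start to differentiate and from astrocytes, and LEF1 is known from endothelial cells of the brain, where Wnt signals maintain the barrier. PRKCD, a protein kinase C, is used as a marker of some thalamic nuclei and is also expressed in myeloid cells.

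The matrix held 79994 nuclei in 17 clusters, which the authors had named oligodendrocytes (61578 nuclei), OPCs or oligodendrocyte precursor cells (6233), myeloid cells (5727), astrocytes (4411), neurons (1714, the whole of cluster 11) and unknown (331, clusters 15 and 16). Libraries held 19981249 to 98850459 UMIs in 2956 to 11992 nuclei. Of all nuclei, 1522 carried 1 of 760 barcode sequences that occurred in more than 1 library. The number of nuclei named neurons ran from 17 in ASO replicate 2 to 527 in saline replicate 3. Levels below are UMIs per 1000000 UMIs (CPM) of the summed nuclei of a type, intervals are exact Clopper-Pearson 95% intervals, and both intervals and limits for a count of 0 cover counting error only. In sums over a type, fewer cells and less RNA per cell cannot be told apart.

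The label of the tissue was checked first on the nuclei named neurons. In saline replicates 1 and 3 and ASO replicate 3, which together held most of these nuclei, genes of striatal projection neurons were high. PDE10A, a phosphodiesterase of those neurons, stood at 1999, 6511 and 4383 CPM there, against 354 CPM in saline replicate 2, 264 and 1234 CPM in ASO replicates 1 and 2, and 358, 254 and 503 CPM in OTV replicates 1, 2 and 3. PHACTR1, also enriched in striatum, stood at 6002, 14094 and 8925 CPM in those 3 libraries and at 178 to 3656 CPM in the other 6. The summed level of the 10 measured striatal genes in nuclei named neurons ran from 1104 to 22644 CPM in saline, 821 to 14900 CPM in ASO and 704 to 846 CPM in OTV animals. For these 3 libraries the neurons went against the label thalamus. Tests between groups were therefore repeated without them, and the lost calls are given below. By PDE10A, ASO replicate 2, with 17 nuclei named neurons, lay between these 3 libraries and the rest, and it was kept. The repeats may thus still hold neurons with striatal genes. What remains is 1 saline, 2 ASO and 3 OTV animals, and in the edgeR fits the lone saline animal is assumed to vary like the other groups. A call lost in this way comes with fewer animals, and does not show that the difference rested on the libraries with striatal genes.

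SLC17A6 was scarce everywhere. The whole matrix held 1246 SLC17A6 UMIs, and nuclei named neurons held 115 of them (9.23%) at a level of 5.15 CPM. In neurons SLC17A6 stood at 1.25, 82.9 and 0.246 CPM in saline replicates 1, 2 and 3, at 13.9, 0 and 0 CPM in ASO replicates 1, 2 and 3, and at 31.8, 33.3 and 6.49 CPM in OTV replicates 1, 2 and 3. The highest value came from 26 UMIs in 4 of 23 nuclei of saline replicate 2, and the groups overlapped. Glia carried SLC17A6 too: oligodendrocytes stood at 0.493, 3.32 and 0 CPM in saline, 0.143, 1.70 and 0.0534 CPM in ASO and 4.58, 3.78 and 8.66 CPM in OTV replicates 1, 2 and 3. Every OTV animal lay above every saline and ASO animal in oligodendrocytes. In OTV replicate 3 the SLC17A6 level of the neurons, 6.49 CPM, was below that of its oligodendrocytes (8.66 CPM), astrocytes (13.6 CPM) and myeloid nuclei (18.6 CPM), cell types that should lack the transporter. The part of free RNA in these glial values was not tested.

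**Figure D1:**
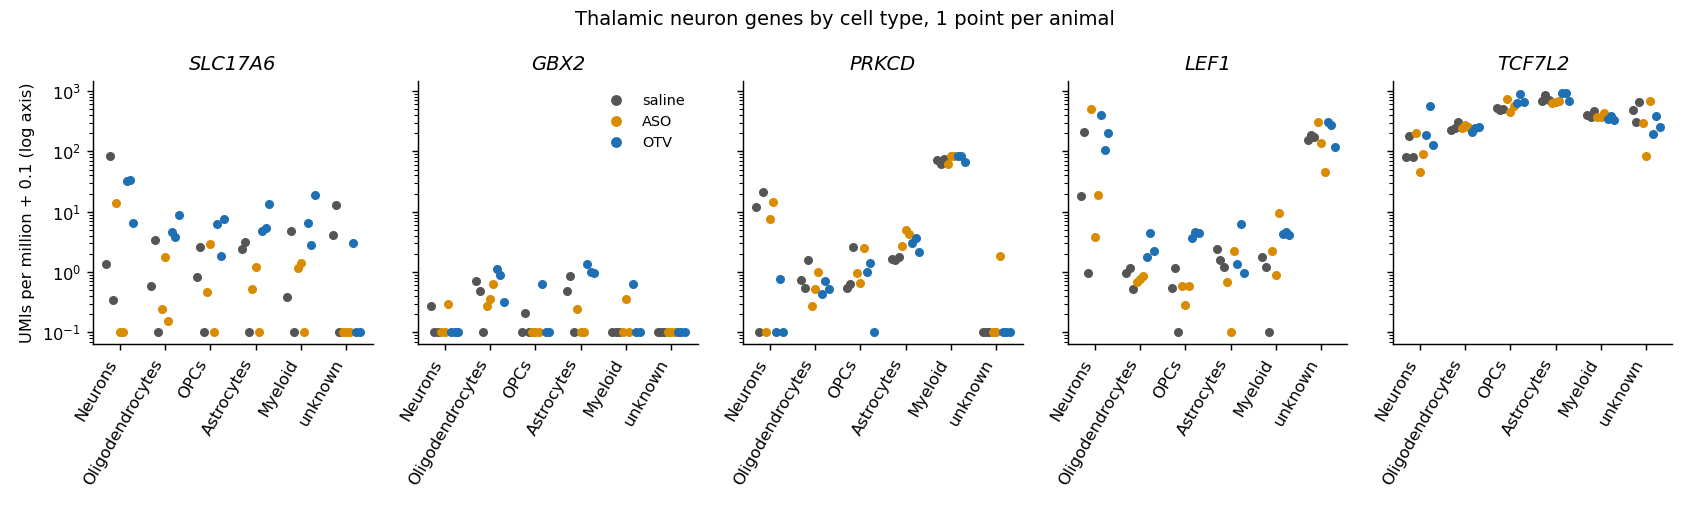
Levels of the 5 genes in each cell type (CPM plus 0.1, log axis), 1 point per animal, coloured by group; points at the bottom are animals with no UMI. PRKCD stands highest in myeloid nuclei in all 9 animals, TCF7L2 is present in every type, and SLC17A6 and GBX2 stay low in most.

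The share of neurons with a SLC17A6 UMI differed widely between animals. Without regard to depth it was 1.10%, 17.4% and 0.38% in saline, 5.56%, 0% and 0% in ASO and 16.3%, 29.5% and 4.55% in OTV replicates 1, 2 and 3. These came from 4, 4 and 2 nuclei in saline, 1, 0 and 0 in ASO and 16, 33 and 4 in OTV animals. The share over all animals, 64 of 1714 nuclei named neurons (3.73%), is weighted towards the 3 libraries with striatal genes, which held most neurons. Of the 64, 54 also had a UMI of another of the 5 genes, and 1 nucleus of 1714 carried 4 of the 5 genes while none carried all. Median depth differed between animals, from 4445 UMIs per neuron in OTV replicate 1 to 16731 in ASO replicate 2, so each nucleus was also thinned to 1000 UMIs. Then 12 of 1714 neurons (0.700%) kept a SLC17A6 UMI: 0.275%, 0% and 0% in saline, 0% in each ASO animal and 3.06%, 6.25% and 1.14% in OTV replicates 1, 2 and 3. All OTV animals lay above all others. The counts of 0 in ASO replicates 1 and 2, with 18 and 17 neurons, allow shares after thinning of up to 16.7% and 17.6% (3 nuclei of the total), and that in saline replicate 2, with 23 neurons, up to 13%; these limits do not apply to the shares without thinning above.

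After thinning, the mean share of neurons with a SLC17A6 UMI was 3.48% ± 2.58 (SD, n = 3) in the OTV group. It was 0.0916% ± 0.159 (SD, n = 3) with saline, and no ASO animal had such a neuron. The two-sided exact permutation test over the 280 partitions into 3 groups gave p = 0.0357, where the smallest p it allows is 0.00357, and OTV against saline alone gave the exact p of 0.1, the smallest for 3 against 3. Thinned to 500 or 2000 UMIs, the OTV mean was 1.91% ± 1.44 or 7.26% ± 3.72 (SD, n = 3) and the exact permutation p was 0.0357 or 0.0143. At 2000 UMIs 72 neurons of lower depth were left out, and 1642 remained, 80, 110 and 66 of them in OTV replicates 1, 2 and 3. Without thinning the exact p was 0.171, so the call depended on thinning, and the level on its depth. Leaving out any saline or ASO animal gave an exact p of 0.05 to 0.0714, and without the 3 libraries with striatal genes it was 0.3 over 60 partitions. Oligodendrocytes, which should lack the transporter, kept a SLC17A6 UMI in 0.594%, 0.359% and 1.14% of nuclei in OTV replicates 1, 2 and 3 after the same thinning, with a median depth of 6016 UMIs over all oligodendrocytes against 12648 over all neurons. In OTV replicate 3 the share in neurons came from 1 of 88 nuclei, with an interval of 0.0288% to 6.17% that holds the share in its oligodendrocytes. For SLC17A6 together with another of the 5 genes, 7 of 1714 neurons thinned to 1000 UMIs (0.408%) qualified, all in OTV animals with a mean of 2.25% ± 1.23 (SD, n = 3), and the exact permutation p was 0.0357. At 2000 UMIs saline replicates 1 and 3 had 1 such neuron each, the OTV mean was 6.01% ± 3.59 (SD, n = 3) and the exact permutation p was 0.0143. The p was 0.168 without thinning, 0.25 without the 3 libraries with striatal genes and 1 when TCF7L2 was not counted.

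**Figure D2:**
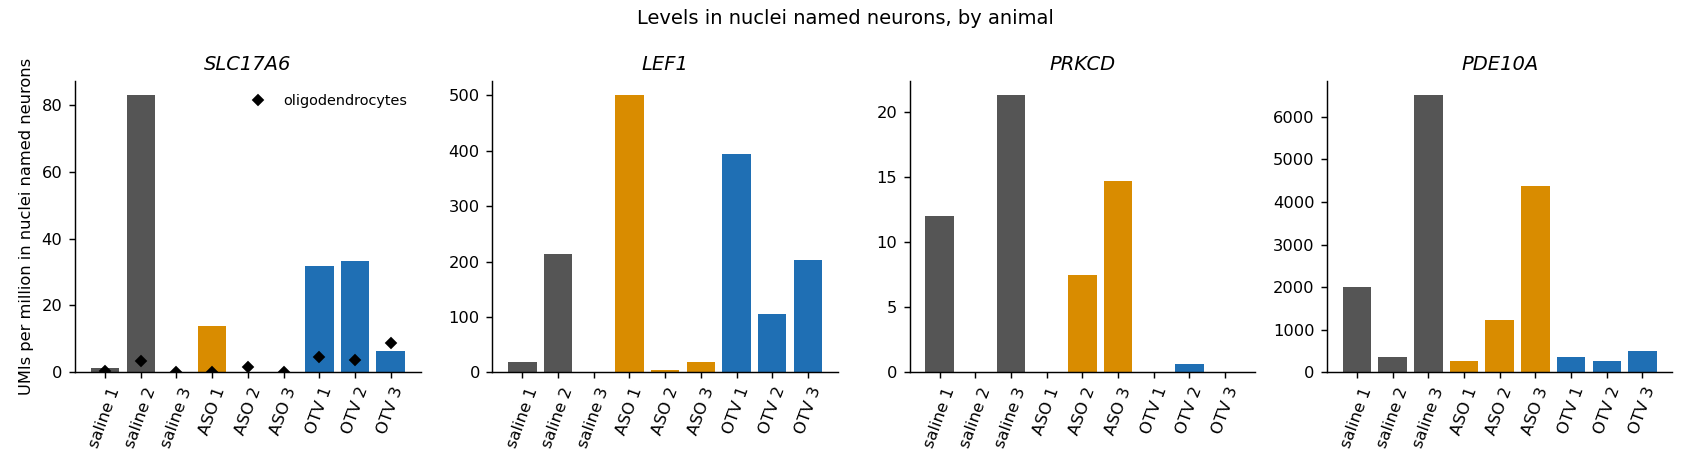
Levels of SLC17A6, LEF1, PRKCD and, for comparison, PDE10A in nuclei named neurons (CPM), 1 bar per animal, coloured by group; diamonds give SLC17A6 in oligodendrocytes of the same animal. PRKCD follows PDE10A, with high bars in saline replicates 1 and 3 and ASO replicate 3, while SLC17A6 and LEF1 are low there.

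Nuclei with SLC17A6 were compared with other neurons by their thalamic, habenular and GABA genes. Of the 64, 55 had at least 3 of the 5 general neuron genes and fewer than 3 of 9 measured endothelial genes. In these 55, NTNG1, a netrin of thalamic axons, was detected in 72.7%, LHX9, a factor of thalamic and habenular neurons, in 41.8%, TCF7L2 in 83.6% and LEF1 in 41.8%. GAD1 and GAD2, the enzymes of GABA synthesis, were detected in 34.5% and 21.8% of them. Of 5 measured genes of the habenula, the neighbour of the thalamus, the nuclear receptor NR4A2 was detected in 20.0%, the nicotinic receptor subunits CHRNA3, CHRNB3 and CHRNB4 in 18.2%, 18.2% and 7.27%, and the factor POU4F1 in 3.64%. CALB1, a calcium-binding protein, was detected in 7.27% and the forkhead factor FOXP2 in 52.7%, both from the list of other thalamic genes. Of that list 11 genes were measured, and not all are given. In all 64 nuclei CALB1 was detected in 6.25%, against 19.9% of the 1650 neurons with no SLC17A6 UMI, and CALB2 in 17.2% against 8.97%. Most of the 1650 came from the libraries with striatal genes. Since 45 of the 55 nuclei came from OTV animals, they were compared with the 160 nuclei of OTV animals that passed the same limits but had no SLC17A6 UMI. LHX9 was detected in 46.7% of the 45 and 10% of the 160, and TCF7L2 in 86.7% and 52.5%. Among the habenular genes NR4A2 was detected in 24.4% and 5.00%, CHRNB3 in 22.2% and 3.75%, CHRNB4 in 8.89% and 3.12% and POU4F1 in 4.44% and 1.25%, while CHRNA3 went the other way, at 22.2% and 31.2%. NTNG1 was about as frequent in both, at 75.6% and 77.5%. GAD1 was detected in 28.9% and 73.8%, GAD2 in 20.0% and 76.2%, OTX2 in 15.6% and 64.4%, LEF1 in 51.1% and 65.6% and FOXP2 in 55.6% and 84.4%. Median depths were 14029 and 11769 UMIs. These shares are descriptions, since nuclei of 1 animal share their source and 31 of the 45 came from OTV replicate 2. Among the 26 nuclei with at least 2 SLC17A6 UMIs, GAD1 was detected in 6, GAD2 in 1 and OTX2 in none.

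Genes that differ between neurons with and without SLC17A6 could not be tested as intended, because after thinning no animal had 10 nuclei on each side. With counts not thinned, OTV replicates 1 and 2 qualified, and apart from SLC17A6 itself edgeR's quasi-likelihood test, Benjamini-Hochberg adjusted called 0 of 7824 genes (588 at an unadjusted p under 0.05). That count turned on the processing: 71 genes were called with DESeq2 size factors, 111 with no filter on low counts and 1 by the DESeq2 Wald test. No gene is named from this split.

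GBX2, a homeobox factor of the developing thalamus, was all but missing. Its 207 UMIs in the whole matrix included 2 in neurons, 1 each in saline replicate 1 and ASO replicate 3, and 180 in oligodendrocytes at 0.454 CPM. The highest cluster means were 1.62 CPM in cluster 8 and 1.61 CPM in cluster 12. At this depth GBX2 marked no cell type, and it passed the filter on low counts in oligodendrocytes only.

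PRKCD was a myeloid gene in these libraries. Myeloid nuclei held 1766 of its 2408 UMIs (73.3%). Their level was 72.2, 62.6 and 75.0 CPM in saline, 62.1, 83.0 and 82.9 CPM in ASO and 84.7, 84.1 and 66.4 CPM in OTV replicates 1, 2 and 3. The groups overlapped. Clusters 7 and 9, both myeloid, had 72.6 and 77.0 CPM, and no other cluster exceeded the 14.2 CPM of neurons. None of the treatment contrasts in myeloid nuclei was called, with differences on the log2 scale of 0.08 (SE 0.17) in ASO and 0.12 (SE 0.17) in OTV animals relative to saline, and 0.04 (SE 0.17) in OTV relative to ASO animals (edgeR's quasi-likelihood test, Benjamini-Hochberg adjusted, adjusted p = 0.911, 0.687 and 0.901).

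In neurons PRKCD stood at 12, 0 and 21.3 CPM in saline, 0, 7.48 and 14.7 CPM in ASO and 0, 0.653 and 0 CPM in OTV replicates 1, 2 and 3. A UMI was present in 14.8% and 22.4% of neurons in saline replicates 1 and 3 and in 11.1% in ASO replicate 3, the libraries with striatal genes. ASO replicate 2, with 2 of 17 neurons (11.8%), had a share like these, and OTV replicate 2 had 1 of 112 (0.893%). Of the 227 neurons with a PRKCD UMI, 54, 118 and 52 came from saline replicates 1 and 3 and ASO replicate 3. Among these 227 nuclei PDE10A was detected in 98.2%, RGS9, a regulator of G protein signalling in striatum, in 98.2%, GAD2 in 95.6% and DRD2, a dopamine receptor, in 32.2%. The corresponding shares in the 1487 other neurons were 78.1%, 50.2%, 71.6% and 12%. These others include 98, 111 and 88 nuclei of OTV replicates 1, 2 and 3, and 96 nuclei with endothelial genes described below. The library and kind of a nucleus therefore cannot be told apart from PRKCD in these shares, with or without thinning. No comparison within libraries was made. The nuclei with PRKCD were deeper, at a median of 21599 UMIs against 10726. After thinning to 1000 UMIs, PDE10A was detected in 93.0% of the nuclei with PRKCD and 48.0% of the others, and RGS9 in 53.3% and 18.4%. The thinned shares of GAD2 and DRD2 were nearly level, at 29.5% and 23.6% and at 2.20% and 1.55%. Per UMI, GAD2 stood lower in the nuclei with PRKCD, at 286 against 336 CPM, and DRD2 higher, at 32.0 against 19.6 CPM. PRKCD and SLC17A6 shared 1 nucleus, where 1.34 would be shared if the genes were independent within each animal, and PRKCD and LEF1 shared 4, where 6.85 would be. TCF7L2 was above this value with both genes: it shared 145 nuclei with PRKCD, where 106 would be, and 52 with SLC17A6, where 38.9 would be. After thinning TCF7L2 shared none with PRKCD, where 1.55 would be, and 7 with SLC17A6, where 3.01 would be.

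In sums over all animals LEF1 was highest in cluster 15. Among nuclei named neurons it was far higher in those with endothelial genes than in those with neuron genes. Cluster 15, named unknown, stood at 278 CPM with a UMI in 54.5% of its 213 nuclei, and neurons stood at 41.1 CPM with a UMI in 246 of 1714 nuclei. Within them, 96 nuclei with endothelial genes had 1367 CPM and 1410 with neuron genes 18.3 CPM, by limits given below. Cluster 16 stood at 28.0 CPM. Every other cluster was at or below the 4.81 CPM of myeloid cluster 7. These sums are weighted towards the animals with most nuclei of a cluster. Averaged over animals, neurons stood at 162 CPM, and they stood above cluster 15 in saline replicate 2, ASO replicate 1 and OTV replicates 1 and 3. Cluster 15 had high LEF1 in each animal, at 395, 204 and 435 CPM in saline, 313, 138 and 316 CPM in ASO and 308, 300.1 and 120 CPM in OTV replicates 1, 2 and 3. The groups overlapped, and with 7 to 72 nuclei an animal this cluster was not tested.

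What cluster 15 was could be read from its markers. It carried PDGFRB (883 CPM), RGS5 (1025 CPM) and ABCC9 (594 CPM), genes of mural cells, the pericytes and smooth muscle of vessel walls, and DCN (421 CPM), a fibroblast proteoglycan. The summed 5 measured mural genes ran from 1497 to 4349 CPM over the animals, and 147 of 213 nuclei had at least 3 of the 5. None of its nuclei had 3 endothelial genes, and FLT1, a receptor of endothelial cells, stood at 5.22 CPM. SLC17A6 was at 5.22 CPM there, and GBX2 and PRKCD had no UMI. Cluster 16 carried DNAH9 and CFAP43, genes of motile cilia, at 3115 and 2010 CPM. In myeloid cluster 7, 11 of 32 nuclei with LEF1 had at least 3 of 7 T cell genes, against 1.58% of the other nuclei, and 8 of the 32 came from ASO replicate 3, where the summed T cell genes reached 1224 CPM against 35.5 CPM in the lowest animal.

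Among nuclei named neurons, LEF1 marked 2 different kinds. In saline replicates 1, 2 and 3 it stood at 18.4, 214 and 0.861 CPM, in ASO replicates 1, 2 and 3 at 501, 3.74 and 19.0 CPM and in OTV replicates 1, 2 and 3 at 394, 106 and 203 CPM. The groups overlapped, and the libraries with striatal genes were among the lowest 4. Of the 246 nuclei with LEF1, 83 had at least 3 endothelial genes and fewer than 3 neuron genes, 152 had the reverse, 2 had both and 9 neither. The 83 carried FLT1 (100% of nuclei), EGFL7 (90.4%) and ERG (88.0%), and SNAP25, a synaptic protein gene, in 4.82%, all genes of the lists that chose these nuclei, so the shares describe the choice. In all, 96 of the 1714 nuclei named neurons (5.60%) had such an endothelial profile, and LEF1 was detected in 83 of these 96. The 96 were spread unevenly, at 11, 8 and 0 of 364, 23 and 527 nuclei named neurons in saline replicates 1, 2 and 3. They were 7, 0 and 14 of 18, 17 and 467 in ASO and 35, 1 and 20 of 98, 112 and 88 in OTV replicates. Levels and shares given for neurons include these nuclei unless neuron genes were asked for. Near the chosen limits, 84 nuclei had 2 or 3 endothelial genes and 338 had 2 or 3 neuron genes.

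**Figure D3:**
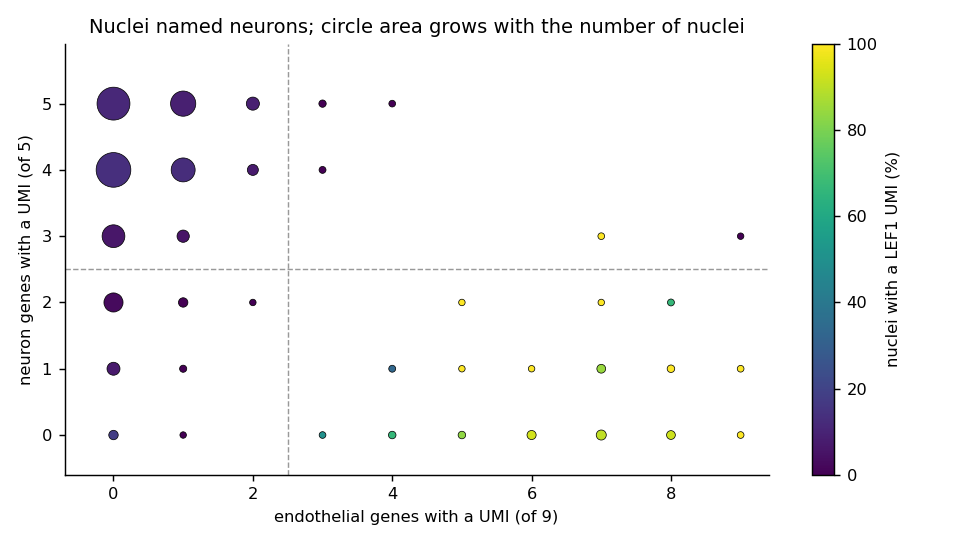
Nuclei named neurons by the number of endothelial genes (horizontal, of 9) and general neuron genes (vertical, of 5) with a UMI; circle area grows with the number of nuclei, colour gives the share with a LEF1 UMI, and dashed lines mark the limits of 3 genes. The group at lower right, with at least 3 endothelial genes and few neuron genes, holds 96 nuclei, 83 of them with LEF1.

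The 152 neuronal nuclei with LEF1 were mostly GABAergic by their genes. GAD1 was detected in 79.6% and GAD2 in 80.3% of them, OTX2, a homeobox factor of midbrain and thalamic interneuron precursors, in 62.5% and GATA3, a factor of midbrain-derived GABA neurons, in 46.7%. In the 1258 neuronal nuclei without LEF1 the shares were 84.6%, 84.5%, 2.46% and 1.35% in the same order. Both groups had like depth, with medians of 15428.5 and 15363.5 UMIs. They differed in source, since 128 of the 152 nuclei came from OTV animals. Within OTV animals OTX2 was detected in 65.6% of 128 nuclei with LEF1 and 33.8% of 77 without, at medians of 13728.5 and 6670 UMIs. OTX2 in neurons stood at 7.51, 89.3 and 0 CPM in saline, 125, 0 and 0 CPM in ASO and 173, 133 and 140 CPM in OTV replicates 1, 2 and 3. LEF1 and SLC17A6 shared 23 nuclei, where 34.2 would be shared if the genes were independent within each animal. The 83 nuclei with endothelial genes enter that value.

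A split of neurons by LEF1, added after seeing the data and made with counts not thinned in 6 animals with at least 10 nuclei on each side, called 1 of 5803 genes (0.0172%) apart from LEF1 itself (edgeR's quasi-likelihood test, Benjamini-Hochberg adjusted). The count turned on the processing: it was 132 by the DESeq2 Wald test, 532 with no filter on low counts and 0 without saline replicate 1, ASO replicate 3, OTV replicate 1 or OTV replicate 2. Split by thinned counts it was 357, but then 4 animals had 10 nuclei on each side, saline replicate 1, ASO replicate 3 and OTV replicates 1 and 3. In these 4 animals the split by counts not thinned called 2.

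TCF7L2 was the one abundant gene of the 5, with 164570 UMIs, of which neurons held 1.65%. It was present in every type. Averaged over animals it stood at 754 CPM in astrocytes, 608 CPM in OPCs, 385 CPM in myeloid nuclei, 373 CPM in unknown nuclei, 251 CPM in oligodendrocytes and 172 CPM in neurons. Astrocytes ran from 624 to 930 CPM over the 9 animals and myeloid nuclei from 326 to 460.1 CPM, so these did not overlap, while OPCs (457 to 896 CPM) overlapped with both. In oligodendrocytes TCF7L2 was detected in 62.1% of nuclei, and their 97177 UMIs were 59.0% of all TCF7L2 UMIs. Oligodendrocyte clusters ran from 169 CPM in cluster 10 to 279 CPM in cluster 1.

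**Figure D4:**
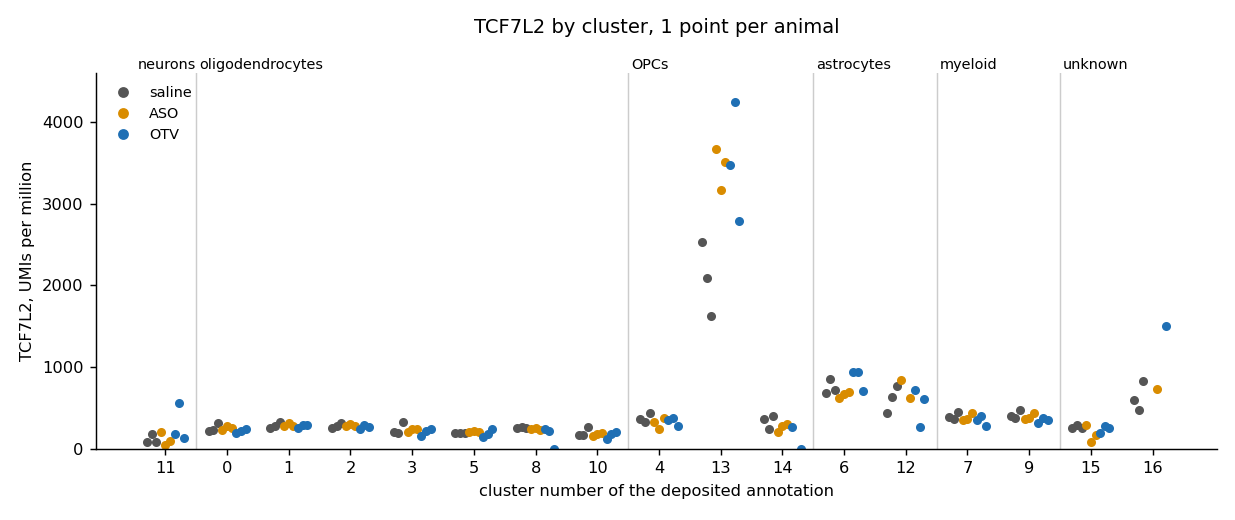
TCF7L2 in the 17 clusters (CPM), 1 point per animal, coloured by group; animals with no nucleus in a cluster have no point, and the points at 0 in clusters 8 and 14 rest on 1 and 6 nuclei. Cluster 13, an OPC cluster, stands above all others in every animal.

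One small cluster stood far above the rest. Cluster 13, with 366 nuclei named OPCs, had 3041 CPM of TCF7L2 and a UMI in 99.5% of nuclei, against 343 CPM in the main OPC cluster 4 and 301 CPM in cluster 14. Cluster 13 also carried genes of newly formed oligodendrocytes: BCAS1 at 8804 CPM, TNS3 at 3704 CPM, ENPP6 at 1146 CPM and GPR17 at 272 CPM. In cluster 4 these were at 709, 385, 26.4 and 38.0 CPM. PDGFRA, the receptor that marks precursors, was lower in cluster 13, at 23.2 CPM against 306 CPM. These genes defined the clusters and are given as a description.

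In neurons TCF7L2 stood at 79.3, 182 and 80.2 CPM in saline, 202, 44.9 and 92.3 CPM in ASO and 185, 556 and 128 CPM in OTV replicates 1, 2 and 3. OTV replicate 2 was the highest, and the groups overlapped. Of 139 neurons with at least 5 TCF7L2 UMIs, 42 came from OTV replicate 2. Saline replicates 1 and 3 and ASO replicate 3, the libraries with striatal genes, gave 24, 37 and 21 of the 139. LHX9 was detected in 23% of the 139 and in 0.635% of the other 1575 neurons, and CHRNB3, a nicotinic receptor subunit of habenula, in 11.5% and 0.762%. The 139 and the 1575 neurons had median depths of 20530 and 11664 UMIs, and these shares are not adjusted for depth. LHX9 and CHRNB3 are single genes of the thalamic and habenular lists, and the other listed genes are not given for this split.

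For TCF7L2 in oligodendrocytes no difference between the 3 groups was called. It stood at 227, 241 and 309 CPM in saline, 240.0, 272 and 258 CPM in ASO and 210.3, 241 and 256 CPM in OTV replicates 1, 2 and 3, and all groups overlapped. On the log2 scale ASO animals stood at -0.05 (SE 0.13) and OTV animals at -0.09 (SE 0.13) relative to saline, and OTV at -0.04 (SE 0.13) relative to ASO animals, with adjusted p = 0.921, 0.684 and 0.857 (edgeR's quasi-likelihood test, Benjamini-Hochberg adjusted). The sign of the first and second turned without saline replicate 3, at 0.10 and 0.06, and that of the third without ASO replicate 2 (0.03) or OTV replicate 1 (0.02).

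Over 5 types, 18 tests of the 5 genes were possible in each contrast. ASO against saline called 0 of 18 (2 had an unadjusted p under 0.05; the DESeq2 Wald test called 0), where 0.205% of all gene by type tests were called. OTV against saline called 3 of 18, all higher: LEF1 in oligodendrocytes, LEF1 in OPCs and TCF7L2 in OPCs, against 16.1% of all tests called in either direction and 6.67% called higher. OTV against ASO called 3 of 18, all higher: LEF1 in oligodendrocytes, LEF1 in OPCs and SLC17A6 in astrocytes, against 21.8% of all tests called in either direction and 9.65% called higher; the DESeq2 Wald test called 5. The members' counts are thus close to the shares called in either direction. LEF1 in OPCs passed the filter on low counts through the OTV animals alone, and SLC17A6 in astrocytes through them and saline replicate 2. Both were thus tested because they were high in OTV animals, and their calls as higher add no support to the counts. The shares of genes called in oligodendrocytes, myeloid nuclei, astrocytes and neurons, in this order, were 0.394%, 0.197%, 0.0147% and 0% with ASO against saline, 19.2%, 12%, 15.4% and 6.82% with OTV against saline and 26.3%, 20.5%, 22% and 5.23% with OTV against ASO. In OPCs they were 0.262%, 22.1% and 27.2%. Without saline replicates 1 and 3 and ASO replicate 3, OTV against saline called 0, with 1 saline animal left. Without saline replicate 1, or without OTV replicate 2, it called 1, and OTV against ASO called 5 without saline replicate 2 or ASO replicate 2.

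LEF1 in oligodendrocytes and OPCs was low and rose in OTV animals. In oligodendrocytes it stood at 0.859, 1.08 and 0.417 CPM in saline, 0.586, 0.662 and 0.774 CPM in ASO and 1.67, 4.33 and 2.15 CPM in OTV replicates 1, 2 and 3. In OPCs it stood at 0.445, 1.08 and 0 CPM in saline, 0.495, 0.186 and 0.487 CPM in ASO and 3.58, 4.44 and 4.27 CPM in OTV replicates 1, 2 and 3, from 0 to 20 UMIs an animal. The OTV animals did not overlap with the others in either type. In oligodendrocytes LEF1 was higher by 1.66 on the log2 scale in OTV against saline (SE 0.42, adjusted p = 0.0237) and by 2.08 in OTV against ASO (SE 0.41, adjusted p = 0.00611) in edgeR's quasi-likelihood test, Benjamini-Hochberg adjusted, where 19.2% and 26.3% of genes were called.

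In OPCs LEF1 was higher by 2.72 in OTV against saline (SE 0.60, adjusted p = 0.00844) and by 3.34 in OTV against ASO (SE 0.64, adjusted p = 0.0032), where 22.1% and 27.2% of genes were called by edgeR. LEF1 passed the filter on low counts in OPCs through the OTV animals alone, since no other animal reached the 1.79 CPM it asks for; with no filter the adjusted p values were 0.00462 and 0.00099. The oligodendrocyte call against saline was lost without saline replicate 1 (adjusted p = 0.08), saline replicate 2 (0.0519) or OTV replicate 2 (0.068), and with the 6 compared animals alone (0.053). Without saline replicates 1 and 3 and ASO replicate 3, which leaves 1 saline animal, the edgeR values against saline were 1.36 (adjusted p = 0.252) in oligodendrocytes and 1.93 (adjusted p = 0.127) in OPCs, and those against ASO were 2.15 (adjusted p = 0.0311) and 3.46 (adjusted p = 0.00556). The number of LEF1 nuclei among neurons was also highest in OTV animals, at 19, 11 and 7 of 364, 23 and 527 neurons in saline replicates 1, 2 and 3. It was 10, 1 and 16 of 18, 17 and 467 in ASO and 64, 63 and 55 of 98, 112 and 88 in OTV replicates. Per neuron, saline replicate 2 and ASO replicate 1 came near the OTV animals, and these nuclei include those with endothelial genes. The part of LEF1 nuclei among neurons in the values of oligodendrocytes and OPCs was not tested.

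**Figure D5:**
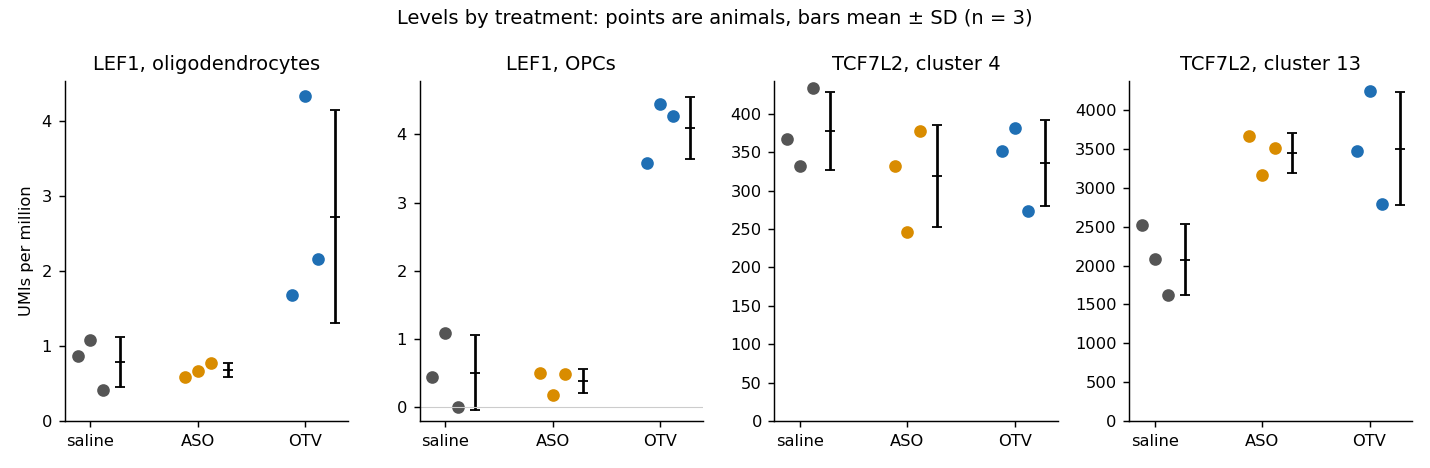
LEF1 in oligodendrocytes and OPCs and TCF7L2 in OPC clusters 4 and 13 (CPM), points are animals, bars are mean ± SD (n = 3). LEF1 in OTV animals lies above all other animals in both types, and TCF7L2 in cluster 13 is lowest in the 3 saline animals.

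SLC17A6 in astrocytes stood at 2.34, 3.00 and 0 CPM in saline, 0.431, 1.10 and 0 CPM in ASO and 4.74, 5.32 and 13.6 CPM in OTV replicates 1, 2 and 3. The OTV animals lay above all others. OTV against ASO was called at 4.32 on the log2 scale (SE 0.96, adjusted p = 0.0122 by edgeR's quasi-likelihood test, Benjamini-Hochberg adjusted; 22% of genes were called), and it rests on 3, 2 and 0 UMIs in the ASO animals. SLC17A6 passed the filter on low counts, at 2.89 CPM, in the 3 OTV animals and saline replicate 2; with no filter the adjusted p was 0.00556. The call was lost without ASO replicate 1 (adjusted p = 0.0562) or OTV replicate 3 (0.0646). OTV against saline gave 1.99 (SE 0.76, adjusted p = 0.106). Nuclei of the shallow cluster 12, where SLC17A6 was highest among astrocytes, numbered 9, 33 and 44 in saline, 16, 0 and 53 in ASO and 114, 5 and 264 in OTV replicates 1, 2 and 3. In cluster 6, the other astrocytes, SLC17A6 stood at 2.36, 3.03 and 0 CPM in saline, 0.433, 1.10 and 0 CPM in ASO and 3.32, 5.38 and 10.05 CPM in OTV animals, where it did not pass the filter on low counts. The part of cluster 12 in the call was not tested.

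TCF7L2 in OPCs stood at 526, 481 and 511 CPM in saline, 737, 457 and 571 CPM in ASO and 627, 896 and 666 CPM in OTV replicates 1, 2 and 3. OTV animals lay above saline animals and overlapped with ASO animals. OTV against saline gave 0.57 (SE 0.18, adjusted p = 0.0405 by edgeR's quasi-likelihood test, Benjamini-Hochberg adjusted), a call that leaving out any of 6 animals ended: saline replicates 1, 2 or 3 (adjusted p = 0.0938, 0.13 and 0.0792), ASO replicate 3 (0.0558) and OTV replicates 2 or 3 (0.165 and 0.0637). Without the 3 libraries with striatal neurons the value was 0.66 (adjusted p = 0.225). The share of OPCs that lay in cluster 13 was 4.88%, 5.57% and 5.08% in saline, 6.62%, 5.09% and 3.43% in ASO and 6.13%, 9.79% and 9.39% in OTV replicates 1, 2 and 3.

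The OPC clusters differed from each other in this contrast, as values. Tests by OPC cluster were not planned, and cluster 13 was taken up with its high TCF7L2 already seen. Cluster 13 held 25 to 61 nuclei an animal. In cluster 4 TCF7L2 was at -0.13 (SE 0.18, adjusted p = 0.659 by edgeR) for OTV against saline, where 20.2% of genes were called (0.26% and 25.9% in the contrasts of ASO with saline and of OTV with ASO). In cluster 13 it stood at 2526, 2085 and 1619 CPM in saline, 3667, 3161 and 3511 CPM in ASO and 3475, 4243 and 2792 CPM in OTV replicates 1, 2 and 3. All treated animals lay above all saline animals. OTV against saline gave 0.82 (SE 0.22, adjusted p = 0.0264; 11.4% of genes were called), and ASO against saline gave 0.75 (SE 0.22, adjusted p = 0.0766; 3.81% were called; 0.038 by the DESeq2 Wald test and 0.00523 with no filter on low counts) in edgeR's quasi-likelihood test, Benjamini-Hochberg adjusted. OTV against ASO gave 0.07 (SE 0.22, adjusted p = 0.882 by edgeR; 10.3% of genes were called). The OTV call against saline was lost without saline replicate 2 (0.0734), saline replicate 3 (0.104) or OTV replicate 2 (0.0989), with the 6 compared animals alone (0.0592), and without the 3 libraries with striatal neurons, which leaves 1 saline animal (0.262), while its size stayed between 0.65 and 1.00.

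Whether TCF7L2 changed differently between oligodendrocytes, OPCs, myeloid nuclei and astrocytes was tested in edgeR as an interaction with the animals blocked. Neurons were left out of this fit. The interaction test gave adjusted p = 0.861 with ASO and 0.116 with OTV against saline, and 0.163 with OTV against ASO, where 0.957%, 3.53% and 10.4% of genes were called. The last fell to 0.0488 without ASO replicate 1. The other genes of newly formed oligodendrocytes were called in 7 of 34 tests over the 5 types in OTV against saline (20.6%, beside 16.1% of all tests), 12 of 34 in OTV against ASO (35.3%, beside 21.8%) and none with ASO against saline. In oligodendrocytes 1 of 9 rose in OTV against saline, with a list median of -0.15, in astrocytes 2 of 6 rose, and in myeloid nuclei (6 tested) and neurons (4 tested) none was called. In OPCs, the type with most calls, 4 of 9 rose and none fell: NEU4, a sialidase, by 1.99 (SE 0.32, adjusted p = 0.00163), ITPR2, a calcium channel of the endoplasmic reticulum, by 0.54 (SE 0.12, adjusted p = 0.00945), ENPP6, a choline phosphodiesterase, by 1.41 (SE 0.32, adjusted p = 0.0153) and TNS3, a focal adhesion protein, by 0.54 (SE 0.17, adjusted p = 0.0475), all by edgeR. The list's median was 0.54, beside -0.01 over all genes tested, and 22.1% of all genes were called in OPCs. Within the OPC clusters 2 of 9 were called in cluster 4, where 20.2% of all genes were, and 2 of 8 in cluster 13, where 11.4% were, all higher, with list medians of 0.20 and 0.42. Without the 3 libraries with striatal neurons NEU4 alone of the 4 was called, at 1.37 (adjusted p = 0.00859 by edgeR), while ITPR2, TNS3 and ENPP6 stood at 0.58, 0.72 and 1.23.

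The other genes of the Wnt pathway were called in both directions. Of 66 listed genes, 53 had a feature, and 163 gene by type tests were possible. In OTV against saline 20 were called, 10 higher and 10 lower, and in OTV against ASO 28, 15 higher and 13 lower; ASO against saline called 2, WNT10B in oligodendrocytes and SFRP4 in OPCs, both higher. For comparison, 16.1%, 21.8% and 0.205% of all gene by type tests were called in these contrasts. These counts changed when single animals were left out, which also leaves fewer animals. OTV against saline called 3 without the 3 libraries with striatal neurons, with 1 saline animal left, 7 without saline replicate 1, 12 without saline replicate 3, 13 without OTV replicate 2 and 5 without OTV replicate 3. OTV against ASO called 16 without ASO replicate 1 and 12 without OTV replicate 3, and ASO against saline called 0 without saline replicate 1 or 2 or any ASO animal.

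In OPCs, the type with most Wnt calls in OTV against saline (7 of 35, beside 22.1% of all genes), TLE3, a corepressor that binds TCF and LEF factors, rose by 0.56 (SE 0.16, adjusted p = 0.0272) and DVL3, a Dishevelled protein that relays the receptor signal, by 0.65 (SE 0.19, adjusted p = 0.033). The ligand WNT2B fell by 3.41 (SE 0.58, adjusted p = 0.00205), the receptor FZD6 by 0.85 (SE 0.21, adjusted p = 0.0145) and the R-spondin receptor LGR5 by 0.56 (SE 0.16, adjusted p = 0.0267), all by edgeR. Without the 3 libraries with striatal neurons WNT2B alone of these 5 was called, at -3.67 (adjusted p = 0.00847 by edgeR), while TLE3, DVL3, LGR5 and FZD6 stood at 0.66, 0.89, -0.59 and -0.68. In oligodendrocytes, where OTV against ASO had most calls (9 of 45, beside 26.3% of all genes), DVL3 rose by 0.83 (SE 0.17, adjusted p = 0.00721), AXIN1, a scaffold that holds beta-catenin for destruction, by 0.52 (SE 0.11, adjusted p = 0.00865) and the ligand WNT11 by 2.67 (SE 0.62, adjusted p = 0.0132) by edgeR. WNT10B fell by 2.76 (SE 0.32, adjusted p = 0.00051) and WNT2B by 2.65 (SE 0.59, adjusted p = 0.0108). Of these 5, the calls of DVL3 and AXIN1 were lost without the 3 libraries, at 0.82 and 0.44 (adjusted p = 0.0503 and 0.073 by edgeR). The median Wnt gene stood at 0.05 in OPCs for OTV against saline and 0.06 in oligodendrocytes for OTV against ASO, beside -0.01 and -0.01 over all genes. The 9 calls in oligodendrocytes in OTV against ASO were 7 higher and 2 lower. In neurons the list's median was 0.55 in OTV against saline and 0.41 in OTV against ASO, beside -0.02 and -0.02 over all genes. Of 25 genes tested there 2 were called in each, 1 higher and 1 lower, and the part of the libraries with striatal genes in these medians was not tested. In astrocytes the medians were -0.13 and -0.25, beside -0.02 and -0.03.

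Over the 5 types, the other protein kinase C genes were called in 3 of 27 tests in OTV against saline (16.1% of all tests), in 5 of 27 in OTV against ASO (21.8%) and in none with ASO against saline. Of the 5 other protein kinase C genes tested in myeloid nuclei, PRKCA was called, higher by 0.34 in OTV against ASO (SE 0.11, adjusted p = 0.048 by edgeR), and 0.32 (adjusted p = 0.165) without the 3 libraries. PRKCA also rose in neurons by 1.56 in OTV against saline (SE 0.31, adjusted p = 0.0214 by edgeR); without the 3 libraries with striatal neurons the value was 1.59 (SE 0.53, adjusted p = 0.454). Neurons with a PRKCD UMI, nearly all from those libraries, had 226 CPM of PRKCA, and the others 591 CPM. PRKCQ fell in OPCs by 1.5 in OTV against saline (SE 0.38, adjusted p = 0.0223) and in astrocytes by 2.93 (SE 0.45, adjusted p = 0.00443), by edgeR. Without those 3 libraries, which leaves 1 saline animal, neither call against saline was kept, at -0.97 and -2.79. In the same fits OTV against ASO stood at -1.70 in OPCs and -3.05 in astrocytes.

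The genes whose levels were most like each of the 5 over the 17 clusters were listed by Pearson's r of log2(CPM + 1), as a description over clusters of very unequal size and depth. For LEF1 these were ITGA3 (0.975), PDLIM7 (0.947) and SULT1C4 (0.946), all highest in cluster 15. For TCF7L2 they were SORD (0.873), TNS3 (0.868) and CRY1 (0.852), all highest in cluster 13. For PRKCD they were OPRM1 (0.961), FMNL1 (0.961) and SMIM35 (0.956), highest in the myeloid clusters 7 and 9. For SLC17A6 they were ND4L (0.898), PDPR (0.882) and IFRD2 (0.881), highest in the shallow astrocyte cluster 12, where SLC17A6 reached 19.3 CPM from 24 UMIs at a median depth of 1935 UMIs. For GBX2 they were ZNF786 (0.852), GFOD1 (0.842) and FAM24B (0.816), and rest on 207 GBX2 UMIs.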

How the data were processed

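Raw UMI counts per gene and nucleus were deposited as 1 matrix with the authors' cell types and clusters. Per the submitters' processing notes, Cell Ranger 6.1.2 and Seurat 4 were used with the build GRCh38.p13, although the features without a symbol carry identifiers of the cynomolgus monkey. All deposited nuclei were called singlets, and no doublet caller was run here. The table of nuclei also holds a deposited doublet score.

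Counts were summed per animal and type or cluster with at least 10 nuclei in each animal, and tested with edgeR 4.0.16 (TMM, filterByExpr, robust quasi-likelihood, all 9 animals) in R 4.3.3, with DESeq2 1.42.0 as an alternative. Calls are adjusted p values below 0.05. P values between groups in edgeR rest on the spread between animals, 3 in each group, estimated over all groups and moderated over genes. The shares of neurons with SLC17A6 were tested after thinning to 1000 UMIs. Other shares of nuclei with a gene are without thinning unless stated, and are not adjusted for depth. The edgeR fits were tested on simulated data. These held no differences in region or cell composition between animals, so they do not bear on the libraries with striatal genes.

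The members and gene lists were chosen with earlier results of these data known. Of the listed genes, those with no feature under their symbol were not analysed here. Named genes are the 5 members, the 3 most similar features of each, up to 3 called genes in each direction per list in the type with most calls, and markers for label checks; SFRP4 and the protein kinase C genes were named after their values were seen. The gene called in the split by LEF1 is not reported here.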

Additional observations from a re-analysis of the deposited data

How the results depend on the processing

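Of 56 results, 35 were unchanged under every alternative. These include the level of each of the 5 genes in each cell type, a description without a call that had 1 alternative only. Most of the tests and counts of calls changed under at least 1 alternative. No paired analysis was made, because the labels identify animals only by identifiers; these end alike in each group, but nothing ties an ending to a litter, batch or day. The intended split of neurons by SLC17A6 could not be run, nor its thinned sums. Exact permutation p for the share of neurons with SLC17A6 (0.0357) was 0.171 without thinning, 0.3 without saline 1, saline 3 and ASO 3 and 0.0357 to 0.0714 leaving out 1 animal (with at least 2 UMIs no nucleus was left, so that p = 1 is no test); with another gene (0.0357) it was 0.168 without thinning, 0.179 for any 2 of the 5 genes, 1 without TCF7L2, 0.25 without the 3 libraries and 0.0357 to 0.0714 leaving out 1 animal. TCF7L2 in oligodendrocytes ran, leaving out 1 animal, from -0.13 to 0.10 (ASO against saline), -0.17 to 0.0561 (OTV against saline) and -0.0937 to 0.0274 (OTV against ASO); without those 3 libraries, an alternative chosen after seeing the data that leaves 1 saline animal, so that a lost call does not show what it rested on, the first and second were 0.0889 and 0.0248, and in cluster 4 OTV against saline was 0.0655. In cluster 13 OTV against ASO ran from -0.10 (without OTV replicate 2) to 0.21, and ASO against saline was called by DESeq2 (0.77) and with no filter (0.80). Calls among the 5 genes ranged, leaving out 1 animal, from 1 to 4 (OTV against saline, 0 without the 3 libraries) and 2 to 5 (OTV against ASO, 5 by DESeq2). Calls in the Wnt list ranged from 0 to 2 (ASO against saline, 0 with the 6 compared animals and 1 without the 3 libraries), 5 to 22 (OTV against saline, 3 without the 3 libraries) and 12 to 33 (OTV against ASO); the lowest came without OTV replicate 3 in both OTV contrasts. The adjusted p of the difference between cell types for TCF7L2 ranged from 0.0488 (without ASO replicate 1) to 0.284 in OTV against ASO. The split by LEF1 called 0 to 4 genes leaving out 1 animal, 357 when split by thinned counts in 4 animals, 2 in those 4 with counts not thinned, 532 with no filter and 132 by DESeq2; the split by SLC17A6 with counts not thinned called 71 with DESeq2 size factors, 111 with no filter and 1 by DESeq2. The cause was not tested. Of the 5 genes, SLC17A6 and GBX2 had the fewest UMIs in neurons, at 115 and 2, and the part of depth in this was not tested.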
